A study of Rattus norvegicus with 14 samples.

Results

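Liver expression was compared between rats on a magnesium-supplemented diet and rats on a standard diet. The members are the 10 arrays whose titles name these diets, supplemented arrays 1 to 5 and standard arrays 6 to 10, of 14 arrays in all. RNA came from the left lateral lobe, taken at necropsy, and was hybridised to an Affymetrix rat array of 8799 probe sets. The other 4 arrays, of a magnesium-deficient diet, entered the model for the estimate of spread. The labels give no strain, genotype, sex, age, magnesium content or feeding time for any group. Whether the arrays are separate animals is not stated either, so every p-value reflects only the spread between these samples, which may be technical.

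Magnesium ions hold ATP in the form that kinases, ion pumps and many synthetic enzymes use. Hepatocytes take the ion up and release it through dedicated channels and exchangers, and liver exchanges magnesium with plasma under hormonal control. The liver also makes cholesterol, burns fatty acids in mitochondria and peroxisomes, and secretes most plasma proteins through the endoplasmic reticulum.

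The arrays carried the liver label: 9 of 9 tested hepatocyte markers had mean signals ranked from the 97.0th percentile upward, with albumin (Alb) at a mean log2 signal of 13.13. Some arrays stood apart within their diet. Supplemented array 5 had the lowest mean rank correlation with the other arrays, 0.913. Supplemented arrays 3 and 4 and standard array 9 shared a pattern of P450 genes described at the end. Values without them are given for some results below that moved by over 1.5 times. Array 5 also had the lowest 3'/5' control ratio and standard array 10 the highest.

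The array carries separate controls for the 3' and the 5' part of Gapdh, and their signal ratio is a usual sign of RNA integrity, higher where less of the 5' part was copied. On the log2 scale it was 0.77, 1.00, 0.76, 1.12 and -0.12 on supplemented arrays 1 to 5, and 1.53, 1.36, 1.60, 1.04 and 2.65 on standard arrays 6 to 10. Supplemented array 4 and standard array 9 were the only pair of arrays at which the diets met. The means were 0.71 ± 0.49 (SD, n = 5) and 1.64 ± 0.61 (SD, n = 5), and the difference of -0.93 had an exact two-sided permutation p of 0.0159, or 0.0635 after Benjamini-Hochberg adjustment over 4 array measures. The beta-actin ratio differed in the same direction by -0.56 (exact permutation p = 0.103, adjusted 0.138). On array 5 the actin ratio, 1.29, was the highest of its diet although the Gapdh ratio was the lowest. The hexokinase ratio went the other way, by 1.22 (exact permutation p = 0.0317, adjusted 0.0635), but its signals of 0.51 to 12.2 units were dim. The median deposited signal did not separate the diets (exact permutation p = 0.190).

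**Figure D1:**
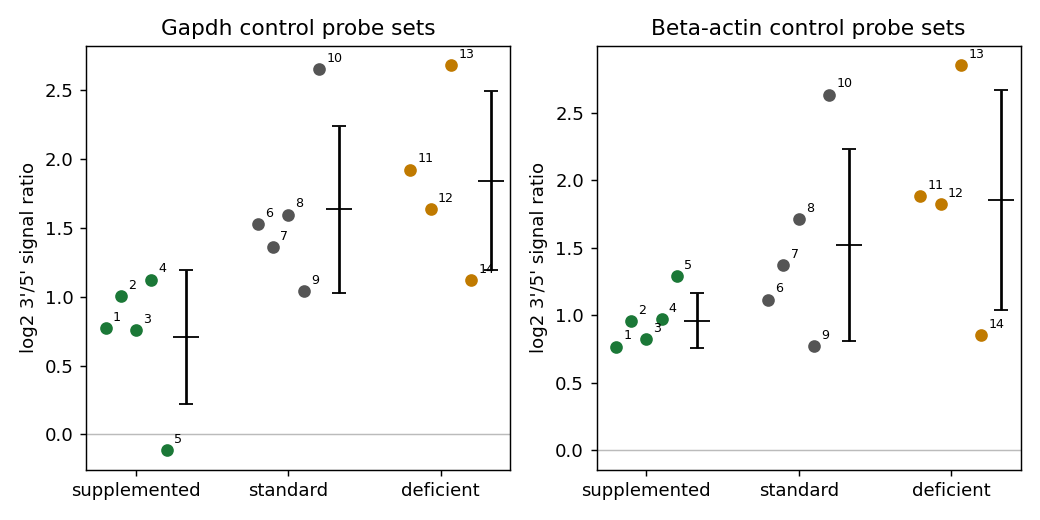
Log2 3'/5' signal ratio of the Gapdh (left) and beta-actin (right) control probe sets on each array, numbered, with the mean and SD of each diet as a bar. The Gapdh ratio averages 0.71 on the supplemented and 1.64 on the standard diet, and array 5 is low for Gapdh alone.

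No probe set passed the test between the diets. With limma, 0 of 5133 tested probe sets (0%) had a Benjamini-Hochberg adjusted p under 0.05, while 456 (8.88%) had an unadjusted p under 0.05, 213 higher on the supplemented diet (4.15%) and 243 lower (4.73%). Among these the scaling decides the balance of direction: higher made up 317 of 487 on the values as deposited and 103 of 460 with arrays centred on their median. The 5 arrays of one diet all lay above the 5 of the other for 93 probe sets, 46 higher (0.896%) and 47 lower (0.916%). Over the 3073 tested genes, each taken by its brightest probe set, the median difference was -0.03 on the log2 scale and 45.1% were higher, while the arrays did not overlap for 30 genes on the higher side (0.976%) and 28 on the lower side (0.911%). Differences below are supplemented minus standard log2 signals, and values for single arrays run in array order.

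Crispld2, which encodes a secreted protein that binds lipopolysaccharide, came nearest to the threshold. Its log2 signal was 3.47, 3.13, 2.78, 3.33 and 3.52 on the supplemented arrays and 5.31, 4.75, 4.84, 4.41 and 5.40 on the standard arrays. Every supplemented array lay below every standard array, by a gap wider than the SD within either diet. The means of 3.24 ± 0.30 (SD, n = 5) and 4.94 ± 0.41 (SD, n = 5) differed by -1.70 ± 0.26 (SE), a 3.24-fold lower signal, with a limma adjusted p of 0.0503. The supplemented values lie below 14.3 units, the limit of mean signal for a tested probe set, so the lower level is dim. With the Gapdh ratio as a covariate the difference was -1.36 ± 0.30 (SE), with a limma unadjusted p of 0.00048. Its limma adjusted p there was 0.999, and no probe set had a smaller one in that fit. Over all alternatives the limma adjusted p of Crispld2 ran from 0.0168 with array weights to 0.999 with this covariate. Crispld2 passed the threshold without standard array 9 (0.0392), deficient array 13 (0.0495) or deficient array 14 (0.0478). With only the supplemented and standard arrays, the smallest limma adjusted p of any probe set was 0.203. Without standard array 6 that smallest value was 0.252, so Crispld2 passed in neither setting.

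Of the 15 genes chosen on the lower side, the glucocorticoid receptor Nr3c1 read 4.95, 5.20, 4.68, 5.30 and 4.44 on the supplemented arrays and 5.42, 5.53, 6.52, 5.53 and 5.71 on the standard arrays. The groups did not overlap, and standard array 8 was the highest. Its difference was -0.83 ± 0.26 (SE; limma adjusted p = 0.474), and -0.42 with the Gapdh covariate. Prkaca, the catalytic subunit of protein kinase A, was 6.33 ± 0.42 on the supplemented and 7.04 ± 0.08 on the standard diet (SD, n = 5 each), a difference of -0.71 that came to -0.40 with the Gapdh covariate. Ilkap, a phosphatase of the metal-dependent PP2C family, had a difference of -0.80 that came to -0.29 with the Gapdh covariate.

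Atp2b1, a plasma membrane calcium pump, read 5.02, 5.10, 2.55, 4.30 and 4.60 on the supplemented arrays against 5.62, 5.31, 5.27, 5.33 and 5.57. Array 3 was far below the rest. The difference of -1.11 ± 0.39 (SE; limma adjusted p = 0.492) came to -0.67 without supplemented array 3 and to -0.54 without arrays 3, 4 and 9. Over the list of calcium and sodium-potassium pumps and channels, 9 of 15 tested genes were lower and 6 higher. The median was -0.01, or -0.05 without arrays 3, 4 and 9. Car4, a membrane carbonic anhydrase, was 4.00 ± 0.36 against 4.97 ± 0.40 (SD, n = 5 each), a difference of -0.97. Slc7a2, a transporter of arginine and other cationic amino acids, differed by -0.84. Atp6v1a, a subunit of the proton pump of lysosomes, differed by -0.77 on its brightest probe set, -0.34 with the Gapdh covariate, and its second probe set had the opposite sign. The remaining genes chosen on this side were Coro7, Tor1aip1, Rps24, Park7, Hsd17b8, Npepps and Trap1, with differences from -0.53 to -0.87. With the Gapdh covariate Tor1aip1 came to -0.49 from -0.79 and Hsd17b8 to -0.42 from -0.64.

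Genes higher on the supplemented diet included a growth factor receptor. Met, the receptor of hepatocyte growth factor, read 4.81, 4.76, 4.78, 4.57 and 4.71 on the supplemented arrays and 3.86, 3.96, 2.72, 4.06 and 3.52 on the standard arrays. The supplemented arrays lay close together and all above the standard ones. The standard mean of 3.62 and the deficient mean of 3.50 lay below the limit for a tested probe set, 3.83 on this scale. Met was thus tested only through its supplemented arrays, and its lower level is dim. The difference was 1.10 ± 0.30 (SE; limma adjusted p = 0.474), and 0.82 with the Gapdh covariate. Hgf, its ligand, read 4.54, 4.29, 3.63, 4.49 and 1.97 against 4.43, 5.10, 5.66, 4.49 and 5.47, a difference of -1.25 ± 0.44 (SE; limma adjusted p = 0.492). The groups overlapped, array 5 sat at the floor, and the difference was -0.50 with the Gapdh covariate.

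Other genes on the higher side whose arrays did not overlap were Clec11a, a secreted growth factor (1.63, or 1.04 with the Gapdh covariate), and Ssh3, a cofilin phosphatase (1.09). The standard mean of Clec11a, 3.48, lay below the limit for a tested probe set, so its lower level is dim. Cd48, a leukocyte surface protein, differed by 0.98, and the LIM-domain protein Csrp1 by 0.77. Tns3, Srpk2, Vps29, Clta, Sdcbp, Slc4a7 and Atic lay between 0.41 and 0.76, and the second probe set of Srpk2 had the opposite sign. For Atic, an enzyme of purine synthesis, the difference of 0.71 came to 0.27 with the Gapdh covariate.

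**Figure D2:**
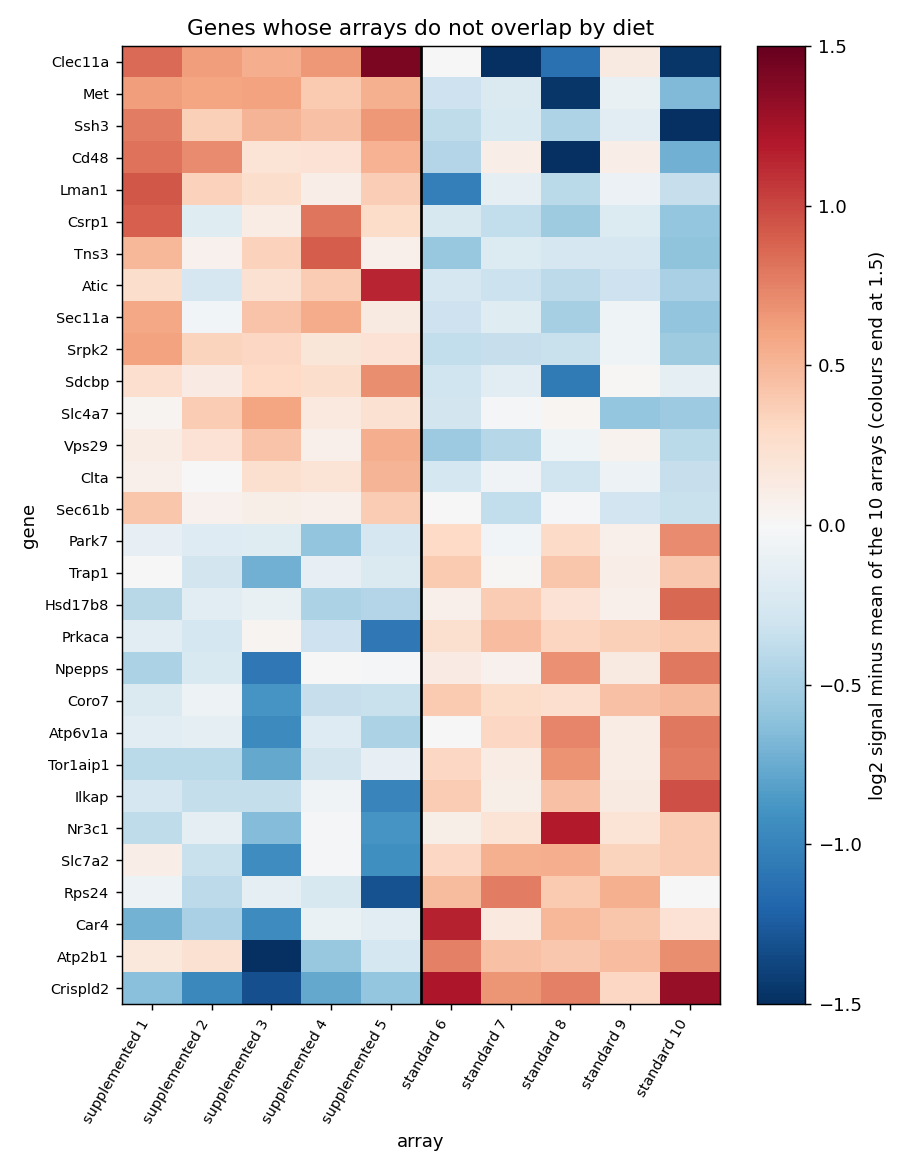
Log2 signal of 30 genes on the 10 arrays, each minus the gene's mean over those arrays, with supplemented arrays left of the line and standard arrays right. The 15 genes above and 15 below were chosen because their arrays do not overlap by diet, so the split is fixed by the choice; Crispld2 differs by -1.70 and Clec11a by 1.63.

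Of 14 tested genes of the translocon, signal peptidase, glycosylation and early transport, 11 were higher and 3 lower, with a median of 0.26 beside -0.03 over all genes. At an unadjusted p under 0.05, 4 were higher and 0 lower, where 3.29% of all genes were higher. The arrays did not overlap for 3 of the 14, all on the higher side, where 0.976% of all genes lay. Signal peptidase subunit Sec11a read 8.78, 8.16, 8.63, 8.76 and 8.34 on the supplemented arrays and 7.90, 8.02, 7.71, 8.13 and 7.61 on the standard arrays. The lowest supplemented array, 2, was just above the highest standard array, 9, and the difference was 0.66 ± 0.19 (SE; limma adjusted p = 0.474). Lman1, a cargo receptor between endoplasmic reticulum and Golgi, read 5.89, 5.31, 5.23, 5.05 and 5.32 against 3.94, 4.81, 4.55, 4.88 and 4.61. The groups did not overlap and differed by 0.80 ± 0.24 (SE; limma adjusted p = 0.474). Sec61b, a subunit of the protein-conducting channel, was higher by 0.41 and the cargo adaptor Tmed2 by 0.40. With the Gapdh covariate the list's median was 0.14 and 9 of 14 were higher.

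Cholesterol synthesis genes were mostly higher on the supplemented arrays, but 1 of them reached an unadjusted p under 0.05. Of 14 tested, 12 were higher and 2 lower, with a median of 0.34. With the Gapdh covariate 14 of 14 were higher, at a median of 0.29. Ebp, a sterol isomerase late in the pathway, read 9.27, 9.06, 9.31, 9.21 and 9.37 on the supplemented arrays and 8.98, 8.50, 8.67, 9.04 and 8.93 on the standard arrays. No array overlapped, and the difference was 0.42 ± 0.14 (SE; limma adjusted p = 0.492).

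The larger differences in this pathway came with a wide spread among standard arrays. Idi1, which isomerises isopentenyl diphosphate, read 8.28, 7.77, 8.32, 8.28 and 6.66 against 6.90, 6.38, 5.39, 8.70 and 6.55. Standard array 9 was the highest of all 10 and standard array 8 the lowest. The difference was 1.08 ± 0.56 (SE; limma adjusted p = 0.584). Sqle, the squalene epoxidase, showed the same order of extremes, with 8.60 on array 9 and 5.58 on array 8, and a difference of 0.95 ± 0.51 (SE; limma adjusted p = 0.593). For Fdps, which makes farnesyl diphosphate, the difference was 0.81 ± 0.50 (SE; limma adjusted p = 0.652). These 3 genes were chosen after their values were seen. Averaged over the list, standard arrays ran from -1.07 on array 8 to 0.49 on array 9, a range that holds all 5 supplemented arrays (-0.09 to 0.45).

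Promoters are shown because Idi1, Sqle and Fdps had their highest value on array 9 and their lowest on array 8, and because the arrays did not overlap for Ebp. The 250 bases before the RefSeq start are given below for Idi1, Fdps and Ebp, 5' to 3', with CCAAT on either strand (CCAAT or ATTGG) in capitals.
Idi1 (GRCr8 chr17:66547525-66547774, minus strand): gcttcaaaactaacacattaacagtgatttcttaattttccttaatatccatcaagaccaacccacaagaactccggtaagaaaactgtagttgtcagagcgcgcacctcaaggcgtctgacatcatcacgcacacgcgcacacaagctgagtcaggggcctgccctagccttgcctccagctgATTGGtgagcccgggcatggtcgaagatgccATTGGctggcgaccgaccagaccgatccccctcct
Fdps (GRCr8 chr2:176804817-176805066, minus strand): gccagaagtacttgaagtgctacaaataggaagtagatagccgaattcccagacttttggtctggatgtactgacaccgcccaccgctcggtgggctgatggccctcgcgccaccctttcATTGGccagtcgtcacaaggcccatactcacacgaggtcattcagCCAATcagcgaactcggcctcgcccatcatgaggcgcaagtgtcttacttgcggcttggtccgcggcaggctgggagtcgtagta
Ebp (GRCr8 chrX:16971212-16971461, plus strand): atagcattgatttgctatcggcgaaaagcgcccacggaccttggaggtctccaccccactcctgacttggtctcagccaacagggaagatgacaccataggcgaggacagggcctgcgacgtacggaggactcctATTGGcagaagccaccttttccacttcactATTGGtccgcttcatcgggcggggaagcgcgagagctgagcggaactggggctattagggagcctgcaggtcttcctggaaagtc
Each of the 3 windows holds 2 matches. CCAAT, searched after the data were seen, was found in 13 of the 16 listed genes that the RefSeq table holds and in 34.0% of all 33469 promoters of that length. The sterol response element written as TCACNCCAC, on either strand of the 300-base entries, was found in 0 of the 16 and in 1.12% of all promoters. These are matches of letters, not measured binding.

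Of the fatty acid synthesis genes, both acetyl-CoA carboxylases, which make malonyl-CoA, had the smallest p-values but not the largest differences. Acaca was 5.00 ± 0.54 on the supplemented and 4.28 ± 0.50 on the standard diet (SD, n = 5 each), a difference of 0.72 ± 0.30 (SE; limma adjusted p = 0.515). Acacb differed by 0.79 ± 0.35 (SE; limma adjusted p = 0.536). With the Gapdh covariate the differences were 0.38 and 0.50. In that fit 0 of the list's 11 genes had an unadjusted p under 0.05, beside 84 of all 3073 tested genes. At that rate a list of this size would often hold none. Fatty acid synthase, Fasn, differed by -0.07, or 0.15 with the Gapdh covariate. Gpam, of the same list, differed by 1.01 ± 0.57 (SE; limma adjusted p = 0.620). Its difference was 0.38 with the Gapdh covariate and 1.56 without arrays 3, 4 and 9. Of 11 tested genes 9 were higher, with a median of 0.15, which was -0.04 with arrays centred on their median and 0.40 without arrays 3, 4 and 9.

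Genes of peroxisomal fatty acid oxidation and of the receptor PPAR-alpha lay on the lower side. Of 16 tested, 11 were lower and 5 higher, with a median of -0.36, the lowest of the 41 lists. At an unadjusted p under 0.05, 4 were lower and 0 higher, where 4.85% of all genes were lower. Acaa1b, a peroxisomal thiolase, read 7.36, 7.39, 6.82, 6.62 and 7.50 on the supplemented arrays and 7.44, 7.31, 8.21, 7.74 and 8.14 on the standard arrays. Supplemented arrays 1, 2 and 5 lay within the range of standard arrays, and the difference was -0.63 ± 0.23 (SE; limma adjusted p = 0.492), or -0.36 without arrays 3, 4 and 9. Abcd3, a peroxisomal membrane transporter, differed by -0.89 ± 0.32 (SE; limma adjusted p = 0.492), and its second probe set had the opposite sign. The receptor Ppara read 3.25, 4.47, 3.74, 4.31 and 4.57 against 4.44, 4.83, 4.57, 5.21 and 4.74, a difference of -0.69 ± 0.28 (SE; limma adjusted p = 0.510). Acox2, a peroxisomal oxidase of branched-chain substrates, differed by -0.65, or -0.33 with the Gapdh covariate.

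The list's median was -0.48 with the Gapdh covariate, where 1 of 16 genes had an unadjusted p under 0.05, beside 84 of all 3073. It was -0.14, with 6 of 16 higher, without supplemented arrays 3 and 4 and standard array 9. Mitochondrial fatty acid oxidation showed 14 of 17 genes lower at a median of -0.15, and none at an unadjusted p under 0.05. Without those 3 arrays its median was -0.04. Cpt1a, the entry step of mitochondrial oxidation, differed by -0.07, by -0.64 with the Gapdh covariate and by 0.45 without those arrays.

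Of 24 listed magnesium transport genes, 7 were tested, 5 higher and 2 lower, at a median of 0.07 that was -0.06 with arrays centred on their median and 0.15 without arrays 3, 4 and 9. Magt1, a magnesium transporter and subunit of the oligosaccharyltransferase, read 7.93, 7.59, 7.76, 7.21 and 7.07 on the supplemented arrays and 6.77, 7.25, 6.74, 7.15 and 6.01 on the standard arrays. Supplemented arrays 1, 2 and 3 were above all standard arrays, and arrays 4 and 5 were not. The difference was 0.73 ± 0.31 (SE; limma adjusted p = 0.517), and 0.35 with the Gapdh covariate. The exchanger Slc41a2 differed by 0.07 ± 0.15 (SE), its relative Slc41a3 by -0.12 ± 0.31 (SE), Cnnm4 by 0.00 ± 0.25 (SE) and Nipal2 by 0.15 ± 0.26 (SE). Egf, which acts on renal magnesium channels, and its receptor Egfr differed by 0.17 and -0.04, or by 0.39 and 0.22 without arrays 3, 4 and 9. Without them Slc41a2 came to 0.00 and Cnnm4 to 0.13.

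Markers of Kupffer cells and macrophages were higher for 12 of 13 tested genes, at a median of 0.27, and for 11 of 13 with the Gapdh covariate. Clec4f, a Kupffer cell receptor, read 8.50, 8.45, 8.58, 8.58 and 8.26 on the supplemented arrays and 7.79, 8.33, 8.09, 8.35 and 7.96 on the standard arrays. Only array 5 was below a standard array, and the difference was 0.37 ± 0.15 (SE; limma adjusted p = 0.516). The list's mean deviation ran from -0.24 to 0.35 on supplemented and from -0.32 to 0.15 on standard arrays. In whole liver, more cells of a type and more RNA per cell cannot be told apart. Stellate cell and matrix genes were higher for 7 and lower for 15 of 22, at a median of -0.08, or -0.15 both with the Gapdh covariate and without arrays 3, 4 and 9. At an unadjusted p under 0.05, 3 were lower and 0 higher, where 4.85% of all genes were lower. The 3 were Hgf (above), Pdgfra at -0.62 and Reln at -0.47. With the Gapdh covariate Pdgfra came to -0.17 and Reln to -0.27. In that fit 0 of the 22 had an unadjusted p under 0.05, beside 84 of all 3073 tested genes, so 0 is near that share.

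**Figure D3:**
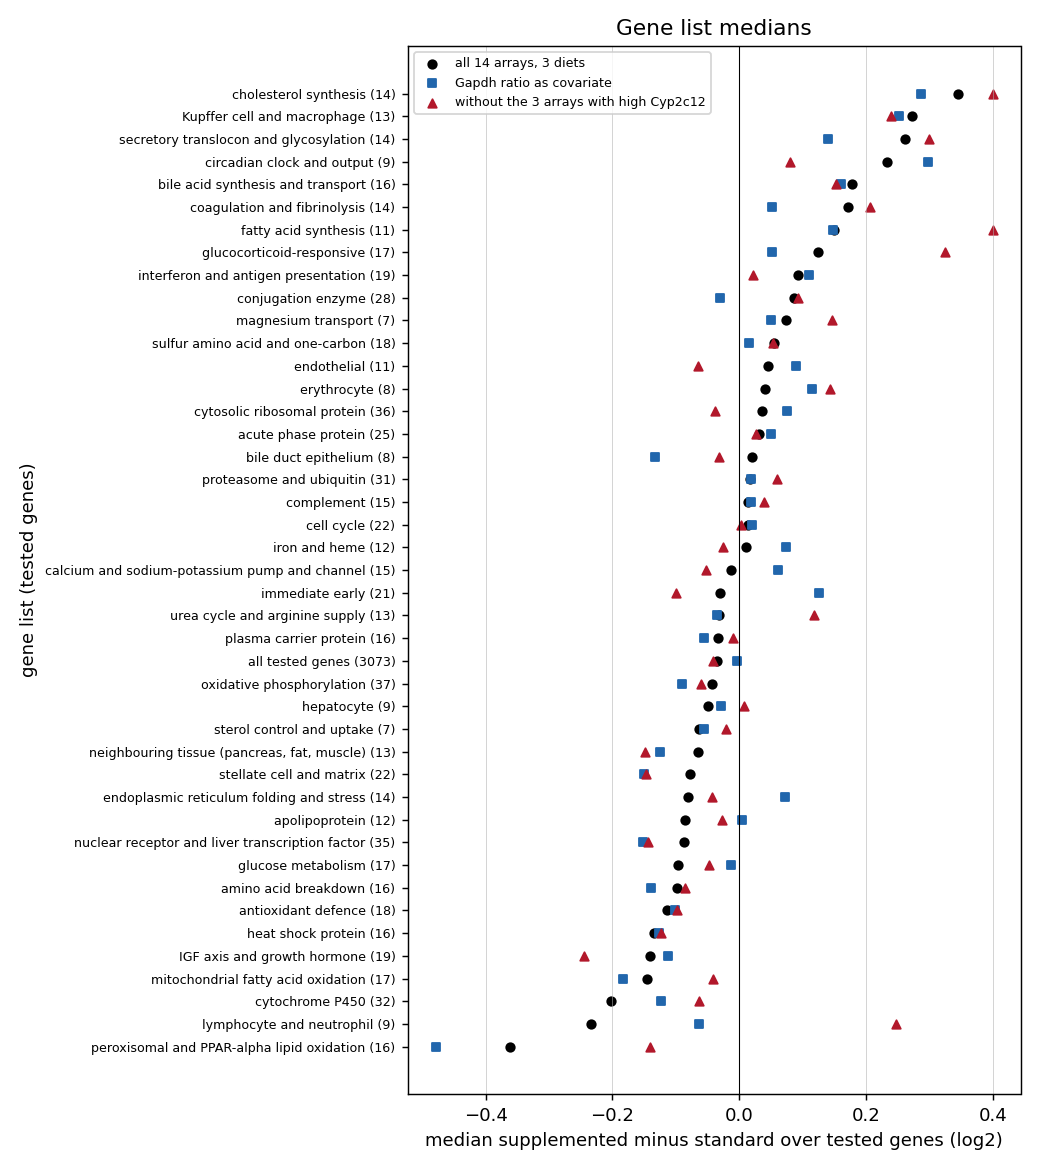
Median supplemented minus standard difference (log2) of each gene list, with its number of tested genes, in the fit without covariate (black), with the Gapdh ratio as covariate (blue) and without the 3 arrays with high Cyp2c12 (red). Cholesterol synthesis is highest at 0.34 and the peroxisomal list lowest at -0.36, where the red point lies at -0.14.

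The control ratio moved with much of the difference between the diets. With the Gapdh ratio as a covariate, 132 probe sets (2.57%) had an unadjusted p under 0.05 and 0 an adjusted p under 0.05 (limma). Of the 456 without it, 401 had a smaller difference, 68 kept an unadjusted p under 0.05, and the median size went from 0.67 to 0.39. A covariate that differs between the diets takes up part of any diet difference, so the share due to either cannot be told apart.

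Within diets, 6 probe sets (0.117%) followed the Gapdh ratio at a limma adjusted p under 0.05, 1 upward and 5 downward, and at an unadjusted p under 0.05 there were 399 upward (7.77%) and 369 downward (7.19%). The count was 0 to 93 when single arrays were left out, with 93 without supplemented array 5. Plg, the precursor of plasmin, had a slope of -1.16 per log2 unit of the ratio. It read 11.00, 10.25, 10.52, 10.34 and 10.93 on the supplemented arrays and 9.87, 9.96, 9.69, 10.02 and 8.28 on the standard arrays. The groups did not overlap, and array 10, with the highest ratio, was the lowest. Its diet difference of 1.04 came to -0.03 with the covariate. Mug1, a plasma protease inhibitor, had a slope of -2.01, and its difference of 1.87 came to 0.00. Syndecan Sdc4 had a slope of 0.72, and its difference of -0.69 came to -0.02. Of the probe sets higher at an unadjusted p under 0.05, 85.9% had a negative slope, against 47.5% of all. Of those lower, 89.7% had a positive slope, against 52.5% of all. Across probe sets, which share the same arrays, the correlation of slope and diet difference was -0.50.

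**Figure D4:**
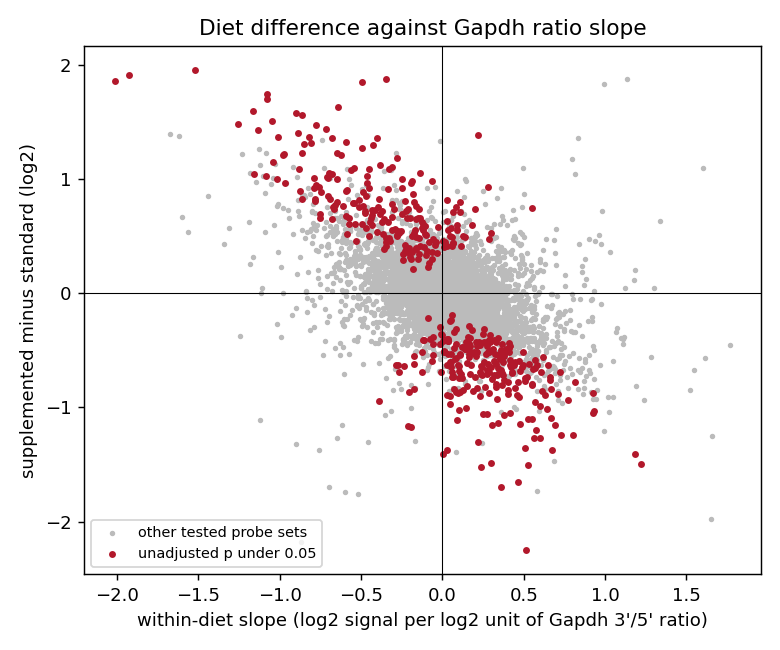
Each tested probe set by its within-diet slope on the Gapdh 3'/5' ratio (x, log2 signal per log2 unit) and its supplemented minus standard difference (y, log2), with unadjusted p under 0.05 in red. Red points above 0 lie mostly left of 0 (85.9%) and those below lie mostly right (89.7%).

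A set of mostly P450 genes split the arrays across the diets. These genes were chosen after their values were seen. Cyp2c12, a P450 that predominates in adult female rats, read 5.10, 7.26, 10.33, 9.46 and 5.77 on the supplemented arrays and 5.77, 4.05, 4.76, 9.09 and 5.08 on the standard arrays. Of these arrays, 3, 4 and 9 stood above 8. Deficient arrays 11 (8.93) and 13 (8.87) did too, and were kept in the fits without arrays 3, 4 and 9. Cyp2c11, which predominates in adult males, read 11.96, 11.73, 8.51, 8.98 and 12.39 against 11.97, 12.04, 12.02, 9.74 and 12.02, lowest on arrays 3, 4 and 9. Hsd3b5, a male-predominant steroid dehydrogenase, read 4.58, 4.09 and 6.13 on arrays 3, 4 and 9 and from 8.50 to 10.28 on the other 7. Cyp2c13 and Cyp3a2 were lowest on them too. The carrier gene Obp3 was lowest on arrays 3 and 4 (4.86 and 1.97), but lower on array 6 (7.12) than on array 9 (8.04). As 2 of the 3 arrays were supplemented, the diets were unequal in this pattern. Cyp2c11 differed by -0.85 with and 0.02 without those arrays, and Cyp2c13 by -1.32 and 0.09. Cyp2c12 differed by 1.83 with and 1.13 without them, and Hsd3b5 by -1.75 and -0.55. The arrays were picked by their high Cyp2c12, so smaller differences without them follow in part from the choice.

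Clock genes divided the arrays another way. Dbp, a clock output factor, was above 7.5 on supplemented arrays 2, 4 and 5 (8.55, 8.78 and 8.19) and standard arrays 8 and 10 (8.19 and 7.52), and between 1.97 and 6.85 on the other 5. Bmal1, which peaks in the opposite phase of the day, was lowest on arrays 4 (2.46) and 8 (3.24) and highest on array 7 (5.83). The part of both patterns in the diet differences was examined only by leaving arrays out or by covariates, and the labels name neither sex nor time of day.

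**Figure D5:**
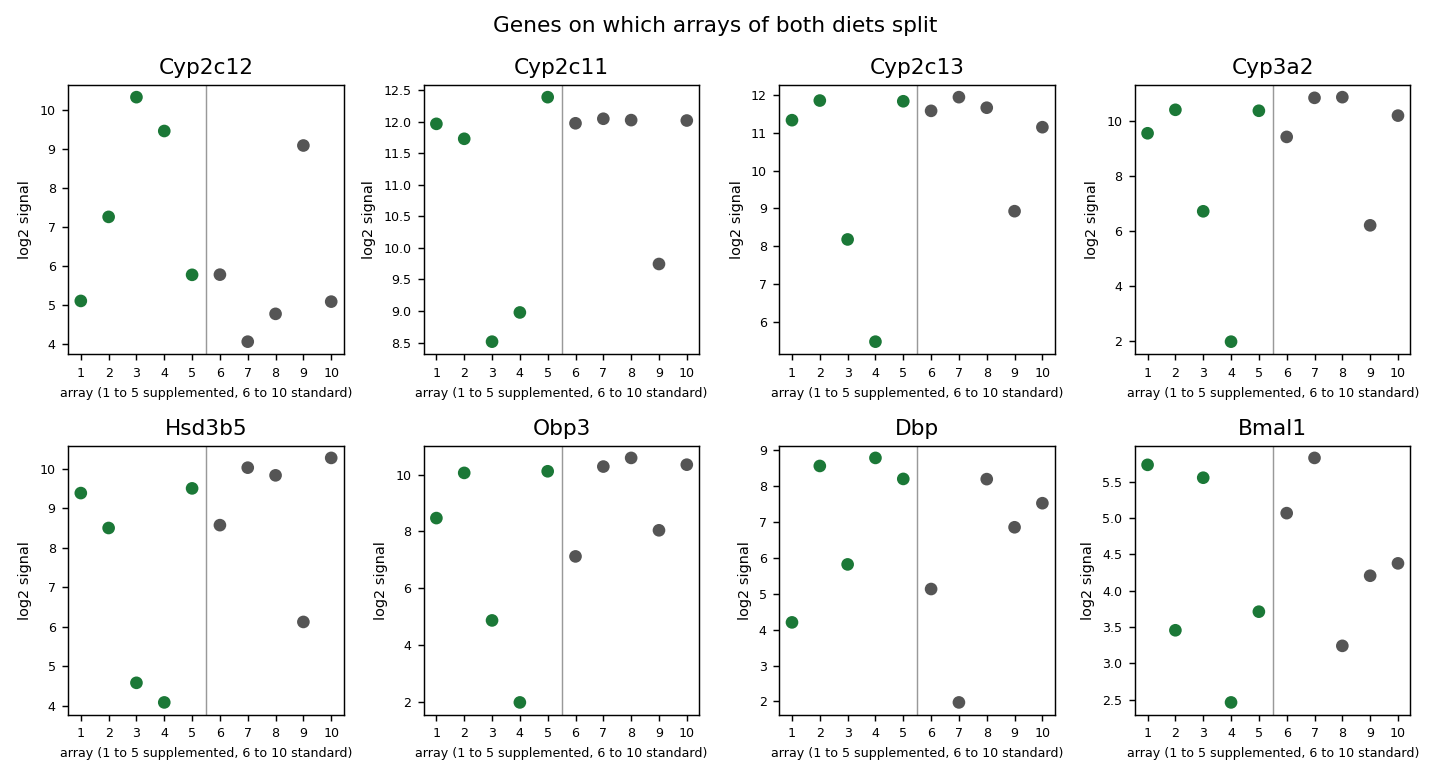
Log2 signal of 8 genes on supplemented arrays 1 to 5 (green) and standard arrays 6 to 10 (grey). Arrays 3, 4 and 9 are high for Cyp2c12 (above 8) and low for Cyp2c11, Cyp2c13, Cyp3a2 and Hsd3b5, while Dbp and Bmal1 divide the arrays differently.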

How the data were processed

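Diets and array numbers were read from the sample titles. Per the table the authors deposited, each value is an intensity on a linear scale, 1 per probe set, and the software that made them is not given in the sources used here. Each array's mean after trimming 2% at each end was 150.3 units. Array medians differed by up to 1.91 times, so signals were quantile normalised without the 59 control probe sets, floored at the pooled 20th percentile (3.93 units) and taken to log2. Probe sets with a mean above the pooled 40th percentile (14.3 units) were tested. Symbols came from the platform annotation, updated through the current rat gene table: 7006 probe sets had 1 symbol, 308 several and 1426 none. Detection calls were not used here, and precision is limited by how many arrays there are. The test was limma 3.58.1 in R 4.3.3 (lmFit, eBayes with trend) on 3 diets and 14 arrays. It was checked on simulated data with independent noise in each probe set and array. That check does not cover patterns that many probe sets share. An adjusted p is Benjamini-Hochberg over 5133 probe sets. Array measures were compared by exact permutation, which cannot go below p = 0.00794.

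Named genes were, in each direction, the 15 non-overlapping genes with the smallest p, up to 3 members of each list at an unadjusted p under 0.05, all magnesium transport genes and the genes with the strongest Gapdh slopes, of which the text gives a selection. Members and the 41 lists were chosen with earlier results of these data known. Alternatives covered scaling, floor, filter, model, covariates and left-out arrays. Those that leave out arrays 3, 4 and 9 for their high Cyp2c12, or use Cyp2c12 or clock genes as covariates, were chosen after seeing the data.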

Additional observations from a re-analysis of the deposited data

Results flagged for a closer look

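In 292 groups of 5 arrays, 21 held an array far from the other 4 by Dixon's criterion, where chance alone gives about 1 in 20, or 14.6. Supplemented array 5 supplied 7 of them. Its log2 signals were 4.04 for Rps24, 9.80 for Prdx1, 9.33 for F10, 8.54 for Mbl1 and 10.01 for Sdc4, each the lowest of its diet. Its mean deviation was 0.39 for sterol control and uptake and 0.65 for genes of neighbouring tissue, each the highest. On supplemented array 4 Park7 was low at 8.68, amino acid breakdown was low at -0.76 and immediate early genes were high at 0.16. Acute phase genes were low on supplemented array 3, at -0.067, and Nr1d1 was low on supplemented array 1, at 5.68.

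Standard array 10 was low for Ssh3 (3.07), Mug1 (5.64), Plg (8.28), Cops7a (5.50) and conjugation enzymes (-0.37). Standard array 9 was low for Cyp2c11 (9.74) and Cyp2c13 (8.93). Prdx1 was low on standard array 6 (10.48), and Nr3c1 was high on standard array 8 (6.52).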

How the results depend on the processing

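No paired analysis was possible because no array number is shared between diets. The planned fit on arrays in the shared Gapdh range was not run, since 1 array of each diet lay there. The count of probe sets at an adjusted p under 0.05, 0 in the reported fit, was 1 with the floor at the 30th percentile, without the trend or with array weights, Crispld2 in each case. It was 0 to 2 with single arrays left out, with 2 without supplemented array 2 and 1 without standard 9, deficient 13 or deficient 14. Without supplemented array 2 the smallest limma adjusted p was 0.000575. Crispld2 reached no value that low in any alternative, so this call was of another probe set, which is not named here. With Dbp minus Bmal1 as a covariate it was 2, and 0 when the brightest Bmal1 probe set was used instead, a choice made after the first count was seen. The count at an unadjusted p under 0.05 (456) was 132 with the Gapdh covariate, 245 with the actin covariate and 270 without the arrays of highest and lowest Gapdh ratio. It ran from 286 (without standard 10) to 546 with single arrays left out. The non-overlapping count (93) was 213 without those extreme arrays, 446 without arrays 3, 4 and 9 and 92 to 221 with single arrays left out. Fewer arrays overlap less by construction. The Gapdh slope count (6) was 69 with the actin ratio and 0 to 93 with single arrays left out. The Gapdh ratio difference ran from -1.08 to -0.67.

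Of 97 genes, 83 had 1 sign in all alternatives run and 14 did not, and the cause was not tested. Most of the 97 were chosen for non-overlapping arrays or an unadjusted p under 0.05. A kept sign therefore follows in part from the choice. Some alternatives, such as leaving out the trend or a deficient array, could hardly change a sign. With the Gapdh covariate Plg was -0.0313, Egf -0.00361, Slc41a3 0.157 and Nr1d1 0.0141. With the actin covariate Slc41a3 was 0.0867, Egfr 0.0264 and Nr1d1 0.0364. On the deposited scale Slc41a3 was 0.0597 and Egfr 0.0462. With arrays centred on their median Serping1 was -0.00391, Slc41a2 -0.127 and Cnnm4 -0.0627. Cnnm4 was -0.130 with array weights, -0.0576 without the extreme arrays, and -0.108 or, with the brightest Bmal1 probe set, -0.117 with the clock covariates. Cyp2b3 was 0.682 as a median over probe sets. Without arrays 3, 4 and 9, Cyp2c11 was 0.0153, Cyp2c13 0.0918, Egfr 0.220 and Per2 -0.122. With Cyp2c12 minus Cyp2c11 as covariate, Cyp2c13 was 0.0117 and Egfr 0.211. With single arrays left out Slc41a2 ran from -0.0144 to 0.169, Cnnm4 from -0.198 to 0.141, Nipal2 from -0.0229 to 0.287, Egfr from -0.217 to 0.127, Bmal1 from -0.745 to 0.0703, Per2 from -0.0382 to 0.580 and Nr1d1 from -0.364 to 0.0815.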

Other observations

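Bile acid transport genes held values not yet described. Abcb11, the bile salt export pump, was 9.42 ± 0.41 on the supplemented and 8.85 ± 0.20 on the standard diet (SD, n = 5 each), a difference of 0.57 (limma adjusted p = 0.492). Cish, a feedback inhibitor of cytokine and growth hormone signalling, differed by 1.30 (limma adjusted p = 0.499). Ddit3 and Trib3, stress-response genes, differed by -1.24 and -0.70 (limma adjusted p = 0.492 and 0.510), and Ddit3 by -0.56 with the Gapdh covariate. Pdia4, of the same list of endoplasmic reticulum folding and stress, differed by 0.54 (limma adjusted p = 0.547), or 0.17 with the Gapdh covariate. Of that list 5 genes were higher and 9 lower at a median of -0.08, or -0.04 without arrays 3, 4 and 9. With the Gapdh covariate 9 of 14 were higher. Ccnd1, cyclin D1, differed by -0.82, and 3 of its 4 probe sets had that sign. A dimmer probe set of Ccnd1 differed by -1.01 (limma unadjusted p = 8.4e-05). Gnmt, a methyltransferase gene, differed by -0.63 on its brightest probe set, and all 3 of its probe sets were lower. A dimmer one differed by -1.06 (limma unadjusted p = 0.00012).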
